A study of Saccharomyces cerevisiae with 14 samples.

Results

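Hel2 binding to RNA in yeast cells that lack New1 was compared between cultures grown at 20°C and at 30°C. The comparison rests on the 4 libraries of the series that were made from Hel2-HTP *new1Δ* cells, 2 from each temperature, out of 14 in all. They were examined across classes of RNA, types of tRNA, noncoding transcripts and protein-coding genes. Each library is a CRAC experiment: RNA crosslinked by ultraviolet light to a tagged protein in living cells is recovered with the protein, trimmed by RNase, reverse transcribed and sequenced.

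Both groups were the laboratory strain BY4741 with the genotype Hel2-HTP::URA3, new1-delta::KanMX6, so that the chromosomal *HEL2* gene carried the HTP tag, an affinity tag for purification, and *NEW1* was replaced by a drug resistance cassette. The wildtype libraries set beside them, 2 at each temperature, came from BY4741 with Hel2-HTP::URA3 and an intact *NEW1*, and the untagged libraries, also 2 at each temperature, from BY4741 with neither change. The labels name one medium, SD-Trp, for all cultures, whereas the methods of the study name a medium that also lacks uracil for the 20°C cultures. Library preparation differed with temperature as well. At 20°C the cultures had a volume of 1 l, RNase acted for 4 min on Hel2-HTP samples, magnetic beads were used, the crosslinked complexes were cut from the gel without transfer to a membrane, samples were pooled before protease digestion, and the final libraries were sized on polyacrylamide. At 30°C the volume was 0.7 l, RNase acted for 5 min, complexes were transferred to a membrane, an indexed primer was used for reverse transcription, and the libraries were sized on agarose. Growth temperature, medium and library preparation therefore cannot be told apart in any difference below. The same steps differed between the temperatures for wildtype cells, and values in wildtype are given beside most of the differences.

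Hel2 is an E3 ubiquitin ligase that binds collided ribosomes, ubiquitinates proteins of the small subunit and thereby starts quality control of the nascent peptide and no-go decay of the mRNA. New1 is a homologue of the elongation factor eEF3 and acts on ribosomes that reach the stop codon behind particular C-terminal codons. Cells without it are known to grow poorly in the cold. Since Hel2 binds translating ribosomes, rRNA, mRNA and tRNA are the RNAs it can meet there, whereas snoRNAs guide the modification of rRNA in the nucleolus.

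The 4 libraries held 1584495 and 926863 reads on annotated features at 20°C against 2766222 and 953239 at 30°C. The wildtype libraries held between 961836 and 2965747 reads in all, and the untagged ones between 829 and 1190800. At 20°C 49.5% and 64.8% of 5838 genes had no read in *new1Δ*, against 43.4% and 15.8% at 30°C. Between replicates the reads per gene correlated with Spearman's rho of 0.494 at 20°C and 0.596 at 30°C across these genes. The reads were not collapsed, and a library held between 3.02 and 11.3 reads per distinct cDNA of mRNA, so intervals and floors below cover the counting error of reads only and are narrower than those of molecules. *NEW1* had 0 and 0 reads in *new1Δ* at 20°C and 0 and 7 reads at 30°C. In wildtype it had 363 and 1192 reads at 20°C against 220 and 105 at 30°C. Its reads were therefore near 0 in the libraries labelled *new1Δ* and present in wildtype ones. The file of *new1Δ* replicate 2 at 20°C names a New1-HTP sample as its input, although its barcode is the one that the study assigns to Hel2-HTP *new1Δ* replicate 2. It held 0 reads of *NEW1*, where the 2 New1-HTP libraries held 696 and 581. It also held 0 reads of *HEL2*, against 170 in its replicate, and which calls of the 20°C against 30°C comparison were lost without it is given beside them.

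Of 15 classes of RNA in *new1Δ* the snoRNAs had the largest ratio between temperatures, while the shares of mRNA, rRNA and tRNA overlapped. mRNA took 44.0% and 36.3% of feature reads at 20°C against 35.8% and 41.8% at 30°C. rRNA took 43.6% and 53.7% at 20°C against 49.6% and 48.0% at 30°C, and tRNA took 7.96% and 6.93% against 8.24% and 4.61%. The exact two-sided permutation p was 0.667 for mRNA and 1 for rRNA and tRNA. With 2 libraries against 2 this test cannot go below 0.333. Fewer molecules of an RNA and less Hel2 on each of them cannot be told apart in reads of this kind. Several small classes were also higher at 30°C without overlap, at the same exact permutation p of 0.333. Cryptic unstable transcripts (CUTs) took 0.419% and 0.318% at 20°C against 0.804% and 0.571% at 30°C, 1.86-fold more, stable unannotated transcripts (SUTs) had a ratio of 2.32, Xrn1-sensitive transcripts (XUTs) of 1.85 and pseudogenes of 3.17. In wildtype, the CUTs took 0.920% and 0.621% at 20°C against 0.439% and 0.577% at 30°C. There mRNA took 51.9% and 49.0% at 20°C against 38.2% and 38.7% at 30°C, without overlap. The wildtype mean at 20°C over that at 30°C was 0.885 for SUTs, 0.892 for XUTs and 0.581 for pseudogenes. In the untagged libraries SUTs took 0.241% and 0.107% at 20°C against 0.618% and 0.823% at 30°C. XUTs took 0.362% and 0.447% in them against 0.8499% and 1.12%, and CUTs 0.362% and 0% against 0.342% and 0.428%. Pseudogenes took 0.121% and 0% against 0.0526% and 0.0383%. The part of background in these classes was not tested.

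snoRNAs took 0.208% and 0.276% of the reads at 20°C against 1.27% and 0.910% at 30°C, which is 4.50-fold more at 30°C, and the groups did not overlap (exact permutation p = 0.333, the smallest possible). In wildtype the shares were 0.364% and 0.342% at 20°C against 0.441% and 0.734% at 30°C, also without overlap. The untagged libraries also held snoRNA reads, with 0.241% and 1.82% at 20°C against 0.997% and 3.01% at 30°C, and what part such background had in the difference was not tested. Most of the difference in *new1Δ* lay in the box C/D snoRNAs, which guide 2′-O-methylation, rather than the box H/ACA snoRNAs, which guide pseudouridylation. Box C/D snoRNAs took 0.0948% and 0.145% of all reads at 20°C against 1.09% and 0.647% at 30°C, with a Wilson interval at 95% of 0.0901% to 0.0997% in replicate 1 at 20°C and of 0.632% to 0.664% in replicate 2 at 30°C. Box H/ACA snoRNAs took 0.0982% and 0.111% at 20°C against 0.151% and 0.211% at 30°C. The mean shares were thus 7.24-fold and 1.73-fold higher at 30°C. For every read on an H/ACA snoRNA there were 0.965 and 1.31 reads on C/D snoRNAs at 20°C against 7.21 and 3.06 at 30°C. In wildtype these ratios were 1.91 and 1.67 at 20°C against 1.21 and 3.72 at 30°C, and overlapped. In the untagged libraries they were 1 and 1.46 at 20°C, where replicate 1 held only 829 feature reads, against 5.13 and 7 at 30°C. The untagged ratios were thus also higher at 30°C, and the part of background in the shift in *new1Δ* was not tested.

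**Figure D1:**
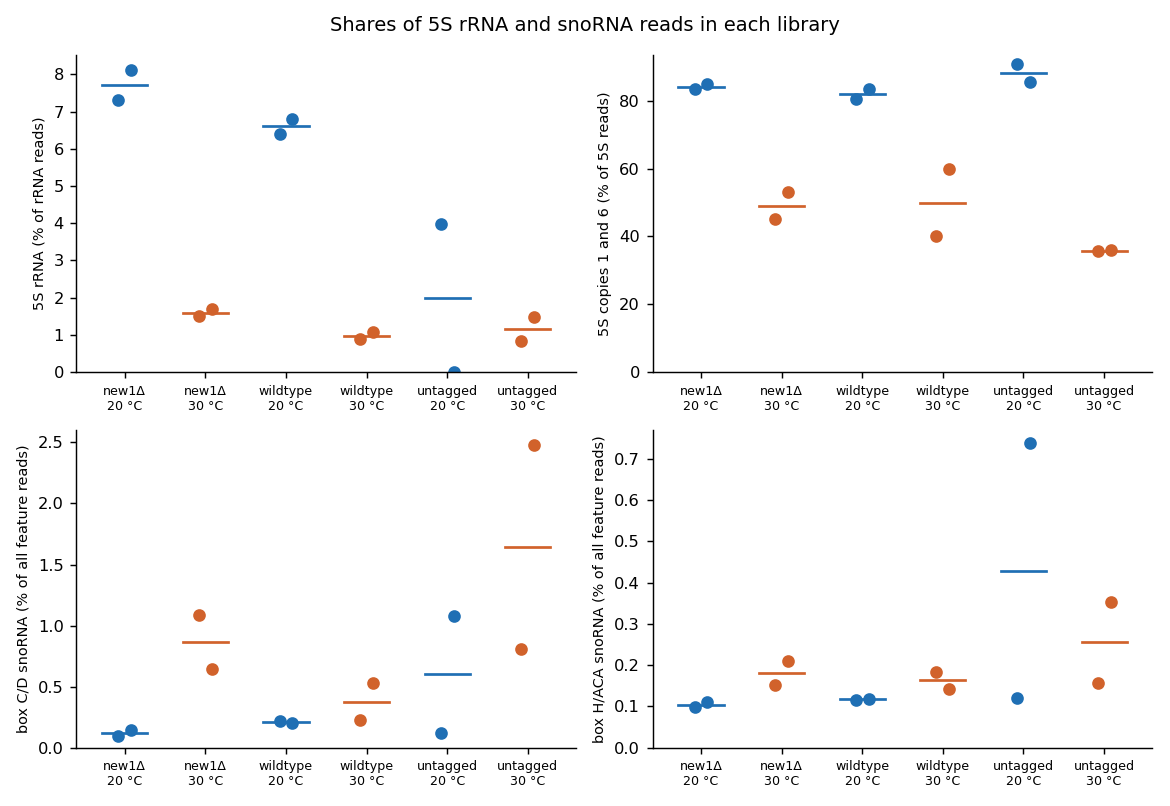
Shares of 5S rRNA among rRNA reads, of 5S copies 1 and 6 among 5S reads, and of box C/D and box H/ACA snoRNAs among all feature reads, in percent. Each point is a library, horizontal lines are means of 2 libraries, blue is 20°C and orange 30°C. In *new1Δ* the 5S share lies at 7.32% and 8.13% at 20°C and at 1.49% and 1.69% at 30°C, and the C/D share at 0.0948% and 0.145% against 1.09% and 0.647%.

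Single noncoding transcripts were tested with edgeR on the scale of mRNA reads, and a feature is called here when its Benjamini-Hochberg adjusted p is under 0.05. Of 1527 noncoding features tested, 15 were called lower and 0 higher at 20°C, which is 0.982% of them, and 76 had an unadjusted p under 0.05. The median fitted log2 fold change of all of them was −3.58. Of the 15, 12 were snoRNAs, out of 77 snoRNAs tested, and all 12 were of the box C/D kind, out of 45 of that kind, while none of 29 box H/ACA snoRNAs was called. Fitted values were lower at 20°C for 44 of the C/D and 24 of the H/ACA snoRNAs. Of the C/D snoRNAs 26 had 0 reads in both *new1Δ* 20°C libraries, and of the H/ACA snoRNAs 13. At 30°C these numbers were 0 and 1. The called ones had a median length of 89 nt, the other C/D snoRNAs of 100 nt and the H/ACA snoRNAs of 204 nt. Fragment sizes were selected differently at the 2 temperatures, and the part of length in the result was not tested.

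*SNR75* had 0 and 0 reads in *new1Δ* at 20°C and 1777 and 522 reads at 30°C, from 125 and 106 distinct cDNAs. Its CPM (reads per 1000000 mRNA reads after TMM scaling) was 1874 and 1800 at 30°C, at least 319-fold above the 20°C libraries if each is allowed 3 reads (adjusted p = 1.6e-08). This and the later bounds count reads. A cDNA of mRNA held 6.83 and 7.08 reads on average in the *new1Δ* 20°C libraries, so bounds in molecules would be lower. In wildtype it had 157 and 101 reads at 20°C against 516 and 274 at 30°C, and in the untagged libraries 0 and 318 at 20°C against 893 and 72 at 30°C. Of the 4 Hel2-HTP groups the *new1Δ* 20°C one alone had no read of it. *SNR79* had 0 and 0 reads at 20°C against 1603 and 382 at 30°C, at least a 261-fold difference (adjusted p = 1.3e-05). In wildtype it had 41 and 0 reads at 20°C against 0 and 150 at 30°C. *SNR24*, which is encoded in an intron of *ASC1*, had 0 and 0 reads at 20°C against 898 and 247 at 30°C, at least a 156-fold difference (adjusted p = 0.00017). The *ASC1* mRNA itself had 2123 and 710 reads at 20°C against 4484 and 1362 at 30°C, with a log2 fold change of −0.96 (adjusted p = 0.563). In wildtype *SNR24* had 194 and 75 reads at 20°C against 278 and 174 at 30°C. *SNR77* had 0 and 0 reads at 20°C against 1182 and 83 at 30°C (adjusted p = 0.0013), and in wildtype 110 and 256 against 60 and 142. *SNR73*, *SNR75* and *SNR77* lie in one cluster on chromosome XIII, with less than 500 bases between neighbours.

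Of the other called snoRNAs, *SNR39* (in an intron of *RPL7A*), *SNR47*, *SNR50*, *SNR66*, *SNR67* and *SNR73* also had 0 reads in both 20°C libraries, with bounds from 67.4-fold to 108-fold. *SNR66* and *SNR50* had 0 reads in both wildtype 20°C libraries too. *SNR128*, which is the U14 snoRNA needed for processing of 18S rRNA, had 64 and 36 reads at 20°C against 2447 and 485 at 30°C (log2 fold change −4.56 ± 1.17 SE, adjusted p = 0.0132), and in wildtype 380 and 659 against 283 and 369. *SNR41* had 1 and 43 reads at 20°C against 2653 and 196 at 30°C (adjusted p = 0.0305), and in wildtype 118 and 314 against 108 and 227. Together the 12 snoRNAs had 65 and 79 reads at 20°C against 14050 and 2746 at 30°C. In wildtype they had 1436 and 1707 against 2089 and 2156. The untagged libraries held 0 and 420 reads of them at 20°C against 5259 and 838 at 30°C. Without *new1Δ* replicate 2 at 20°C, *SNR24*, *SNR41*, *SNR75*, *SNR77* and *SNR79* were still called and the other 7 were not. *SNR24*, *SNR75* and *SNR79* were called in all 8 alternative settings, *SNR77* in 7, and each of the other 8 snoRNAs in 4 or fewer, with 0 for *SNR67*. The number of called noncoding features was 6 then, and 3 to 7 when any one of the 4 *new1Δ* libraries was left out.

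**Figure D2:**
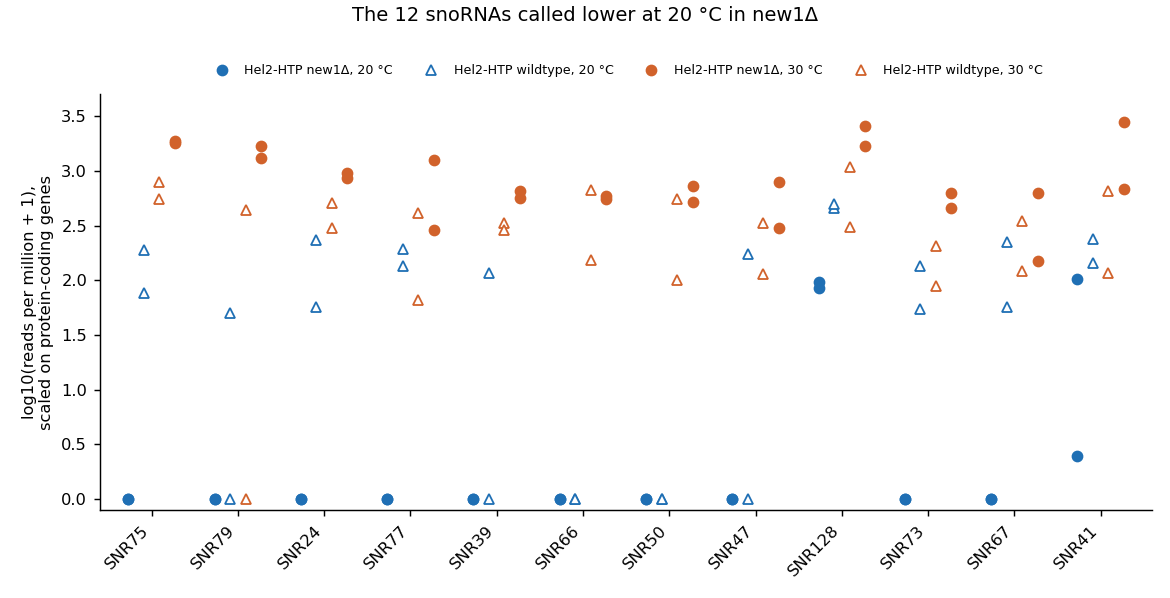
Levels of the 12 called snoRNAs in the Hel2-HTP libraries, as log10 of CPM plus 1. Filled circles are *new1Δ* and open triangles wildtype, blue is 20°C and orange 30°C, 2 libraries each. In *new1Δ* at 20°C, *SNR128* and *SNR41* alone have reads.

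The ends of 5 called snoRNAs are shown because the box C and box D motifs that define the class lie there. The DNA sequence of the snoRNA strand is taken from the RefSeq annotation of the R64 assembly, with TGATGA (box C) or CTGA (box D) in capitals where it occurs in the first 20 or last 15 bases.
SNR75 start, chrXIII:297918-298006, plus strand: ttaTGATGAgatatttatag
SNR75 end: tttCTGAagctgttt
SNR79 start, chrXII:348427-348510, minus strand: ttaaTGATGAtagcatgatt
SNR79 end: caacggtatCTGAat
SNR77 start, chrXIII:297506-297593, plus strand: ttcataTGATGAttataaca
SNR77 end: actatcCTGAcctag
SNR128 start, chrX:139566-139691, minus strand: tcacggTGATGAaagactgg
SNR128 end: aggatgtCTGAgtga
SNR24 start, chrXIII:499984-500072, minus strand: tcaaatgatgtaataacata
SNR24 end: aagatctCTGAtgaa
Searched on the strand of the RNA only, both motifs were present in 36 of 45 C/D snoRNAs, in 0 of 29 H/ACA snoRNAs and in 46.8% of all 77. Of the 12 called snoRNAs 10 held both, and *SNR24* and *SNR41* did not in these windows.

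The other 3 called features were also lower at 20°C. CUT826, a cryptic unstable transcript, had 636 and 99 reads at 20°C against 7847 and 1822 at 30°C (log2 fold change −3.62 ± 0.70 SE, adjusted p = 0.00014). It had 318 and 516 reads in wildtype at 20°C, 710 and 511 at 30°C and 0 in every untagged library, so that the *new1Δ* 30°C libraries stood above all others. The intergenic transcript INT50-3426 had 0 and 0 reads at 20°C against 563 and 197 at 30°C, at least a 110-fold difference (adjusted p = 0.00858), and in wildtype 0 and 0 reads at 20°C against 142 and 107 at 30°C. The untagged libraries held 0 and 0 reads of it at 20°C against 96 and 16 at 30°C. The transcript antisense3995 had 1 and 0 reads at 20°C against 802 and 104 at 30°C (adjusted p = 0.0248), but a log2 fold change of 0.07 when distinct cDNAs, which include antisense reads, replaced sense reads. In wildtype antisense3995 had 100 and 97 reads at 20°C against 171 and 105 at 30°C. The untagged libraries held 0 and 0 reads of antisense3995 at 20°C against 297 and 49 at 30°C. The part of background in the reads of INT50-3426 and antisense3995 was not tested. Without *new1Δ* replicate 2 at 20°C CUT826 was still called, and INT50-3426 (adjusted p = 0.132) and antisense3995 (adjusted p = 0.39) were not. No feature was called higher on sense reads, whereas distinct cDNAs gave 15 calls higher and 39 lower, with 9 of the 15 features above among the latter. Among the 5 with the smallest p in that direction, INT50+3624 had 456 and 164 reads at 20°C against 0 and 9 at 30°C (adjusted p = 0.412). *SCR1*, the RNA of the signal recognition particle, had 2714 and 1333 reads at 20°C against 4060 and 877 at 30°C, with a log2 fold change of −0.03 ± 0.52 SE. None of 5 features annotated as ncRNA, 6 snRNAs and 8 pseudogenes was called.

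Within rRNA, 5S took a larger share at 20°C. It made up 7.32% and 8.13% of rRNA reads in *new1Δ* at 20°C against 1.49% and 1.69% at 30°C, a 4.86-fold difference of the means. In wildtype the shares were 6.39% and 6.81% at 20°C against 0.884% and 1.08% at 30°C, a 6.73-fold difference, so that both strains had the higher share at 20°C. The untagged libraries had 3.99% and 0.0119% at 20°C against 0.841% and 1.48% at 30°C. The share of 5.8S rRNA was 9.92% and 6.39% at 20°C against 3.51% and 3.84% at 30°C in *new1Δ*, and 13.4% and 8.25% against 5.16% and 4.32% in wildtype. Of 25S rRNA the share was lower at 20°C, with 19.0% and 19.9% against 31.7% and 24.0%, and in wildtype 21.03% and 19.2% against 22.04% and 27.6%. Of 18S, the rRNA of the subunit that Hel2 ubiquitinates, it was 63.4% and 65.4% at 20°C against 62.7% and 70.0% at 30°C, and the groups overlapped. In the untagged libraries at 30°C 25S took 91.6% and 83.3% of rRNA reads and 18S only 4.94% and 11.4%. The part of background in the 25S reads of the 30°C libraries was not tested.

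The 5S reads also fell on different annotated copies. Of the 6 annotated 5S genes, copies 1 and 6 have 121 bases and copies 2 to 5 have 119, and they differ only from position 118 on, counted from the start of the RNA. Their ends are shown with the bases that differ in capitals, from the R64 assembly.
RDN5-1, chrXII:459676-459796, plus strand: gaaactcaggtgctgcaATCT
RDN5-2, chrXII:468813-468931, plus strand: gaaactcaggtgctgcaGT
A read that does not reach position 118 matches all 6 copies. RDN5-1 had 21310 and 17303 reads at 20°C against 4579 and 2125 at 30°C, whereas RDN5-2 had 2137 and 1480 at 20°C against 2830 and 931 at 30°C. Copies 1 and 6 together took 83.4% and 85.1% of 5S reads at 20°C against 45.1% and 53.0% at 30°C in *new1Δ*. In wildtype they took 80.6% and 83.7% at 20°C against 40.1% and 60.0% at 30°C, and in the untagged libraries at 30°C 35.6% and 36.1%. The copies with the longer annotated end thus took a larger part of 5S reads at 20°C than at 30°C in both strains. The rise of 5S was not confined to them. In replicate 2 of *new1Δ*, RDN5-2 had 1480 of 926863 feature reads at 20°C against 931 of 953239 at 30°C. In wildtype it had 1631 and 3335 reads at 20°C against 1389 and 537 at 30°C.

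Reads on tRNAs shifted between types. A tRNA type is named here by its amino acid and anticodon. Of 42 types tested on their share of tRNA reads, 3 were called higher and 4 lower at 20°C, which is 16.7% of them, and 17 had an unadjusted p under 0.05. In 26 types the shares of the 2 temperatures did not overlap. Scaled on mRNA reads instead of tRNA reads, 1 type was called higher and 6 lower, and with TMM scaling within the tRNAs 4 were called in each direction.

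tE(UUC), the main glutamate tRNA, took 11.8% and 15.6% of tRNA reads at 20°C against 3.40% and 2.59% at 30°C, with a log2 fold change of 2.19 ± 0.37 SE (adjusted p = 0.00384). The other glutamate tRNA, tE(CUC), took 6.32% and 8.63% at 20°C against 2.31% and 1.55% at 30°C (log2 fold change 1.95 ± 0.46, adjusted p = 0.0161). tA(UGC), an alanine tRNA, took 2.36% and 4.30% against 0.466% and 0.839% (log2 fold change 2.35 ± 0.63, adjusted p = 0.0231). All 3 were also higher at 20°C in wildtype, where tE(UUC) took 15.8% and 13.6% against 3.91% and 3.26%. In the untagged libraries tE(UUC) took 9.92% and 28.6% at 20°C, from 13 and 498 reads, against 2.11% and 2.10% at 30°C. tE(CUC) took 3.05% and 3.73% in them against 1.03% and 1.00%, and tA(UGC) 4.58% and 0% against 0% and 2.64%. Scaled on mRNA reads, the adjusted p became 0.0751 for tE(UUC) and 0.107 for tE(CUC).

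tT(AGU), a threonine tRNA, took 0.221% and 0.478% of tRNA reads at 20°C against 6.17% and 3.35% at 30°C, a 13.6-fold difference of the means (log2 fold change −3.77 ± 0.69, adjusted p = 0.00384). tT(UGU), which also carries threonine, took 0.0762% and 0.0483% against 0.853% and 0.615% (log2 fold change −3.55 ± 0.86, adjusted p = 0.0161). tK(CUU), the lysine tRNA that reads AAG, took 1.36% and 1.17% at 20°C against 9.96% and 5.42% at 30°C (log2 fold change −2.60 ± 0.48, adjusted p = 0.00384). tS(GCU), a serine tRNA, took 0.290% and 0.195% against 2.76% and 1.20% (log2 fold change −3.03 ± 0.75, adjusted p = 0.0161). In wildtype tT(AGU) took 0.419% and 0.386% at 20°C against 5.44% and 2.90% at 30°C, and tK(CUU) 4.55% and 5.05% against 13.1% and 8.11%. tT(UGU) took 0.203% and 0.0450% there against 0.499% and 0.695%, and tS(GCU) 1.19% and 0.524% against 3.03% and 1.55%. In the untagged libraries tT(AGU) took 0.763% and 0% at 20°C, from 1 and 0 reads, against 4.597% and 1.73% at 30°C. tK(CUU) took 14.5% and 0% in them, from 19 and 0 reads, against 7.35% and 6.56%. tT(UGU) took 0% and 0% against 1.23% and 3.19%, and tS(GCU) 0% and 0% against 2.86% and 1.91%. The part of background in the shifts of tRNA types was not tested. The mean of tK(CUU) was 6.07-fold lower at 20°C in *new1Δ* and 2.21-fold lower in wildtype. The difference between the strains in this change was not called (adjusted p = 0.643). With the sequencing run, which same-numbered *new1Δ* and wildtype libraries of a temperature shared, as a replicate block, it was called (log2 difference −1.44 ± 0.33 SE, adjusted p = 0.00525).

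As last sense codons of mRNAs, the lysine codon K(AAA) and the arginine codons R(AGG) and R(CGU) form the class that the study calls strongly affected by loss of New1. The 3 tRNAs that read these did not pass the test. The lysine tRNA tK(UUU) took 0.262% and 0.0421% at 20°C against 0.624% and 1.19% at 30°C (adjusted p = 0.0624). The arginine tRNA tR(ACG) took 0.528% and 0.657% against 1.54% and 3.04% (adjusted p = 0.0553). tR(CCU), encoded by the single gene *HSX1*, took 4.18% and 9.40% at 20°C against 2.63% and 0.969% at 30°C (adjusted p = 0.0653), and in wildtype 5.43% and 8.51% against 1.66% and 0.653%. The groups did not overlap in any of the 3, with tR(CCU) above and the other two below their 30°C shares. Without *new1Δ* replicate 2 at 20°C, the glutamate tRNA tE(UUC), the threonine tRNA tT(AGU) and the lysine tRNA tK(CUU) were still called, and the other 4 called types had adjusted p values from 0.0613 to 0.0845. Without replicate 1 at 20°C 13 types were called. No tRNA type was called for a difference between *new1Δ* and wildtype in its change with temperature (0 of 42, 0% of types, 3 with an unadjusted p under 0.05, lowest adjusted p = 0.187, and 0 by DESeq2). With the sequencing run as a replicate block 3 were called, tK(CUU), tR(CCG) and the serine tRNA tS(AGA).

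**Figure D3:**
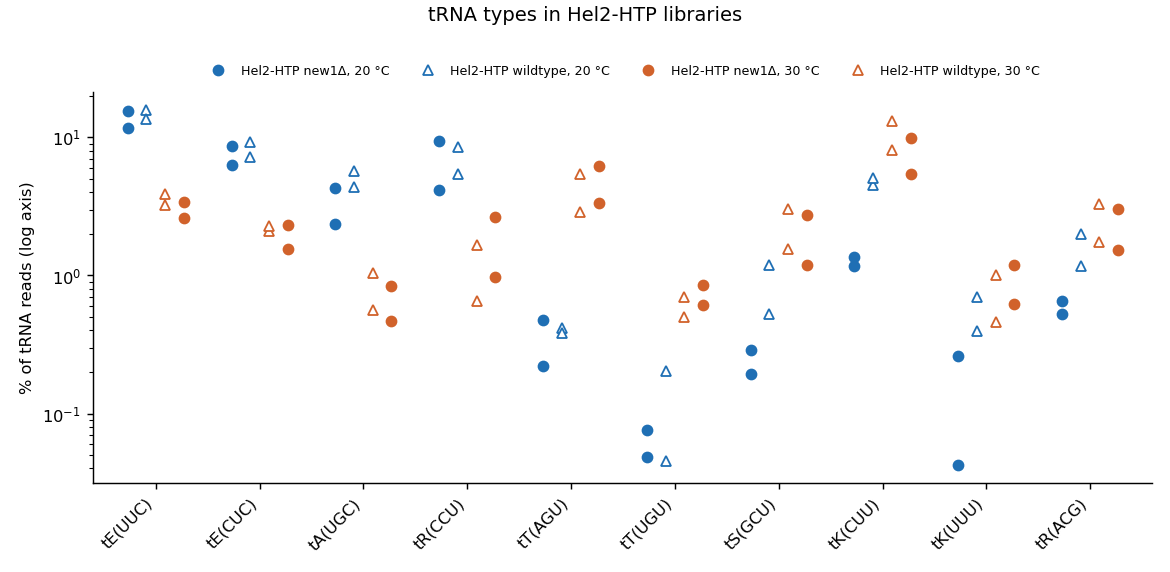
Shares of tRNA reads, in percent on a log axis, of the 7 called tRNA types and of the 3 types that read the codons described above, which were not called. Filled circles are *new1Δ* and open triangles wildtype, blue is 20°C and orange 30°C. tE(UUC) lies at 11.8% and 15.6% in *new1Δ* at 20°C and tT(AGU) at 0.221% and 0.478%.

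The anticodon arms of the called types and of the 3 others are shown because the anticodon, in capitals, sets the codons that each type reads. They are DNA sequences of the tRNA strand from RefSeq on R64, and the position is that of 1 gene of each type.
tE(UUC), chrII:645167-645238, plus strand: tcacgctTTCaccgtgg
tE(CUC), chrIV:1017207-1017278, minus strand: tcacgttCTCaccgtgg
tA(UGC), chrI:166267-166339, plus strand: cttccctTGCaaggaag
tT(AGU), chrII:266378-266450, plus strand: ccacactAGTaatgtgg
tT(UGU), chrVII:661749-661820, plus strand: ttgcactTGTaatgcaa
tK(CUU), chrIII:151284-151356, minus strand: tatgactCTTaatcata
tS(GCU), chrVI:191513-191613, minus strand: atgccctGCTaaggcat
tK(UUU), chrIV:359577-359672, plus strand: ttcggctTTTaaccgaa
tR(CCU), chrX:538555-538626, plus strand: tctccctCCTaaggaga
tR(ACG), chrIV:619969-620041, minus strand: tctggctACGaaccaga
The arm shown was shared by all RefSeq genes of a type except for tS(GCU), where 2 of 4 genes had it, and tR(ACG), where 5 of 6 had it. Since identical genes share their reads, counts of a single tRNA gene are uncertain. In some types 1 gene held a large part of the reads. tK(CUU)M held 79.8% and 85.1% of tK(CUU) reads in *new1Δ* at 20°C against 84.2% and 73.8% at 30°C. tT(AGU)N2 held 75.2% and 29.3% of tT(AGU) reads at 20°C against 14.9% and 45.8% at 30°C. tS(AGA)D1 held 64.05% and 85.2% of the reads of the serine tRNA tS(AGA) at 20°C against 43.1% and 20.4% at 30°C, and in wildtype 69.4% and 86.7% against 49.6% and 33.7%, although tS(AGA) as a whole was not called (adjusted p = 0.667).

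Among mRNAs, those of 2 alcohol dehydrogenases and of 4 genes of translation and protein folding had fewer Hel2 reads at 20°C. Of 4831 genes tested, 6 were called lower and 0 higher, which is 0.124% of them. At an unadjusted p under 0.05, 315 were lower and 19 higher. Scaled with size factors of DESeq2 instead of TMM, 6 were called lower and 4 higher, and without either scaling 9 and 5, and these scalings moved the median of all genes by 0.27 and 0.40. DESeq2 itself called 151 lower and 20 higher. The median log2 fold change was −1.04 over all tested genes, 3283 of which had a value below 0, and 0.03 over the 1039 genes with at least 10 reads in each *new1Δ* library when these were fitted alone.

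*ADH1* encodes the main alcohol dehydrogenase of fermentation and ends in K(AAA). It had 5295 and 3185 reads at 20°C against 27231 and 8716 at 30°C, which is 7891 and 7486 CPM against 28712 and 30050. The mean was 7689 ± 286 (SD, n = 2) at 20°C and 29381 ± 947 at 30°C, a 3.82-fold difference (log2 fold change −1.93 ± 0.21 SE, adjusted p = 0.000766). In wildtype its mean was higher at 20°C, with 26872 ± 5208 against 17758 ± 2446 at 30°C. *ADH2*, the alcohol dehydrogenase that oxidises ethanol, had 415 and 305 reads at 20°C against 3439 and 889 at 30°C (log2 fold change −2.32 ± 0.37, adjusted p = 0.0237). In wildtype its mean was 2.25-fold higher at 20°C than at 30°C. The 2 coding sequences are 88.8% identical, with 930 identical bases of 1047, so that some reads of one can be counted on the other, and *ADH2* is uncertain for this reason. The untagged libraries had between 1 and 488 reads of *ADH1*.

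The other 4 called mRNAs had no reads at 20°C. *CDC33*, which encodes the cap-binding factor eIF4E, had 0 and 0 reads at 20°C against 232 and 140 at 30°C, from 18 and 39 cDNAs, at least a 63.1-fold difference if 3 reads are allowed in each library. *YDJ1*, an Hsp40 co-chaperone, had 0 and 0 against 331 and 100 reads, at least a 60.2-fold difference. *RPS9A*, of the small subunit, had 0 and 0 against 318 and 66 reads, at least a 48.8-fold difference. *RPL36A*, of the large subunit, had 0 and 0 against 227 and 71 reads, at least a 42.0-fold difference. All 4 had an adjusted p of 0.0237. On distinct cDNAs *CDC33* was still called and *YDJ1*, *RPS9A* and *RPL36A* were not. In wildtype each had reads in every library, for example 325 and 608 of *CDC33* at 20°C against 642 and 184 at 30°C. The untagged libraries at 30°C held 72 and 3 reads of *CDC33* and 203 and 0 of *YDJ1*. Of *RPS9A* they held 152 and 14, and of *RPL36A* 419 and 18. They had 310279 and 23629 mRNA reads, against 973836 and 393146 in *new1Δ* at 30°C. At 20°C the untagged libraries held 1 and 77 reads of *RPS9A* and none of *CDC33*, *YDJ1* or *RPL36A*. The part of background in the 30°C reads was not tested. The *new1Δ* counts at 30°C come from few cDNAs, between 18 and 39 in a library. In the *new1Δ* 20°C libraries a cDNA of mRNA held 6.83 and 7.08 reads on average, more than the 3 reads allowed. Bounds in molecules would therefore be lower than these bounds in reads. The paralogue *RPL36B*, with 89.4% identity in the coding sequence, had 138 and 34 reads at 20°C against 756 and 165 at 30°C, and *RPS9B* had 891 and 239 against 1667 and 573, so that neither was at 0. Among genes with at least 100 reads in both 30°C libraries 6 of 564 had none in both 20°C libraries, and the reverse held for 0 of 489. In wildtype these counts were 0 of 570 and 2 of 1107. Without *new1Δ* replicate 2 at 20°C, 12 genes were called, among them *ADH1* (adjusted p = 0.0446) and these 4 but not *ADH2* (adjusted p = 0.105). Without *new1Δ* replicate 1 at 20°C 49 genes were called, without replicate 1 at 30°C 26 and without replicate 2 at 30°C 16.

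The mRNAs with the smallest p among the rises did not pass the test. *EFT1* and *EFT2* both encode eEF2, which moves the ribosome along the mRNA, and their coding sequences are 99.8% identical, so that the 2 cannot be separated. *EFT1* had 9333 and 5580 reads at 20°C against 3274 and 1495 at 30°C (log2 fold change 1.65 ± 0.31, adjusted p = 0.0564). *EFT2* had 7352 and 5515 against 2913 and 1534 (log2 fold change 1.52 ± 0.34, adjusted p = 0.109). For *EFT1* the adjusted p was under 0.05 in 9 of 12 alternative settings, and not in the 3 that left out either 20°C library or all wildtype libraries. In wildtype *EFT1* had 3373 and 4862 CPM at 20°C against 2636 and 3152 at 30°C, so that the *new1Δ* libraries at 20°C, with 13909 and 13116, stood above the other 3 groups. *GDH1*, the glutamate dehydrogenase that assimilates ammonium, had 2243 and 1050 reads at 20°C against 470 and 236 at 30°C (log2 fold change 2.15 ± 0.51, adjusted p = 0.126), and in wildtype 1379 and 1333 against 635 and 266. *HXT3*, a hexose transporter, had 1806 and 617 against 226 and 154 (log2 fold change 2.43 ± 0.69, adjusted p = 0.259), and in wildtype 280 and 621 against 223 and 71. *YLR154C-G* (log2 fold change 1.18, adjusted p = 0.0984) overlaps the 25S rRNA gene *RDN25-2* on the same strand, so that its reads can be rRNA.

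**Figure D4:**
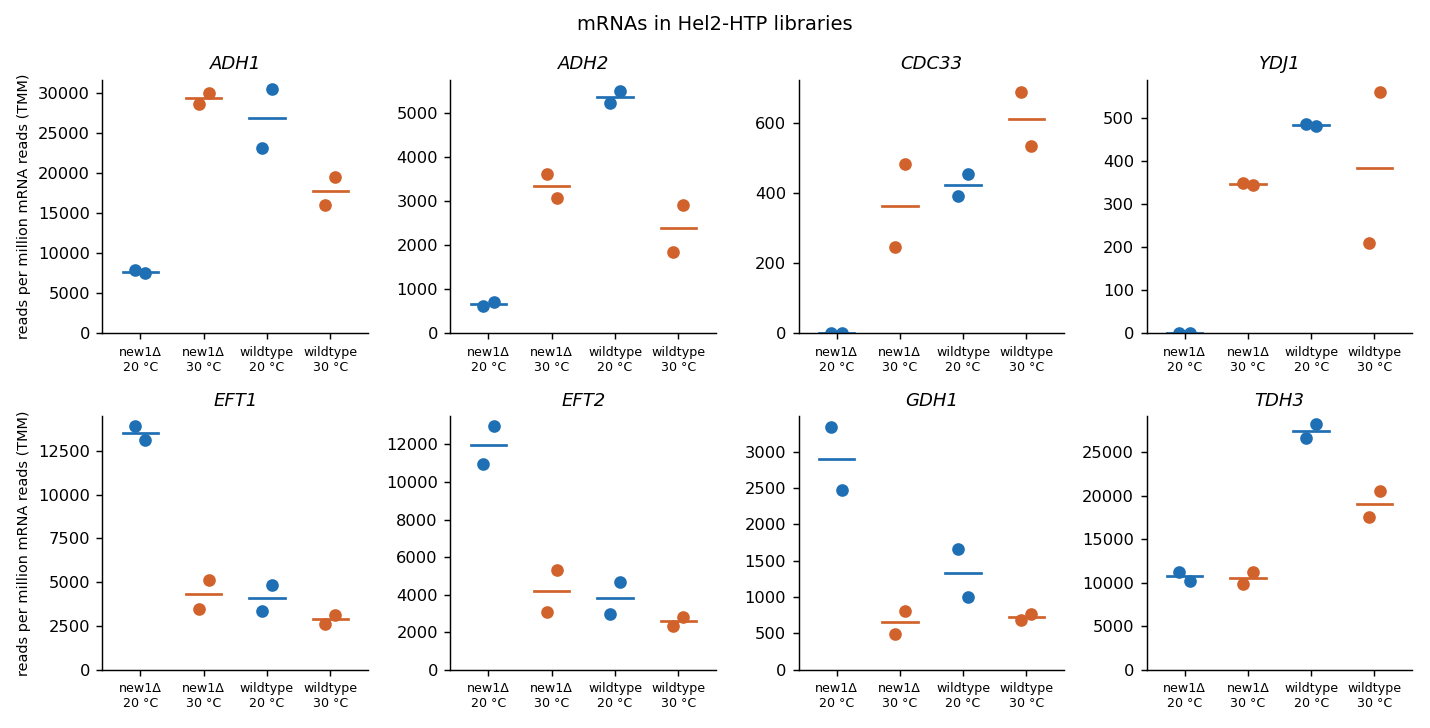
CPM of Hel2 reads for 8 mRNAs in *new1Δ* and wildtype libraries at 20°C (blue) and 30°C (orange). Points are libraries and lines means of 2. *ADH1* lies at 7891 and 7486 in *new1Δ* at 20°C and at 28712 and 30050 at 30°C, while the 2 *TDH3* groups overlap.

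The last 30 coding bases of these mRNAs are shown because New1 acts on ribosomes at the stop codon. The last sense codon is in capitals and precedes the stop codon, and the sequences are from RefSeq on R64.
ADH1, chrXV:159548-160594, minus strand: ggtagatacgttgttgacacttctAAAtaa
ADH2, chrXIII:873291-874337, minus strand: ggtagatacgttgttgacacttctAAAtaa
CDC33, chrXV:60383-61024, minus strand: agacaccctcaaccatcaatcaccTTGtaa
YDJ1, chrXIV:505868-507097, minus strand: ggcgaaggtgttcaatgtgcatctCAAtga
RPS9A, chrXVI:404950-406044, plus strand: gatgaagctgatgaggccgatgaaGAAtaa
RPL36A, chrXIII:651145-651910, plus strand: aacatcattgctgcttctcgtcgtCACtaa
EFT1, chrXV:575098-577626, plus strand: ggctggcaagaatattacgacaaaTTGtaa
GDH1, chrXV:1041678-1043042, minus strand: gctatgtttgaccaaggtgatgtaTTTtaa
HXT3, chrIV:1162957-1164660, minus strand: ttctacaagaaaatgttcggcaagAAAtaa
*ADH1* and *ADH2* are identical over these bases and end in K(AAA), as does *HXT3*, whose reads were higher at 20°C. The remaining called mRNAs end in codons outside the affected classes.

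*PGK1*, *GPM1* and *TDH3*, glycolytic mRNAs that the study probed, did not pass the test. *PGK1*, which ends in K(AAA), had 4481 and 2692 reads at 20°C against 6212 and 4882 at 30°C (log2 fold change −0.85 ± 0.35, adjusted p = 0.626). *GPM1*, also ending in K(AAA), had 14775 and 5863 against 14907 and 7861 (log2 fold change −0.26 ± 0.30, adjusted p = 0.803), and its sign changed under other scalings. *TDH3*, which ends in A(GCU), had 7559 and 4347 reads against 9317 and 3258 (log2 fold change 0.03 ± 0.20, adjusted p = 1). In CPM *TDH3* lay at 11265 and 10218 at 20°C and at 9824 and 11233 at 30°C in *new1Δ*. In wildtype it lay at 26616 and 28194 against 17504 and 20593.

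The difference between *new1Δ* and wildtype in the change with temperature was tested in the same fit. Of 4831 genes 2 were called, which is 0.0414% of them (208 at an unadjusted p under 0.05), namely *ADH1* (difference of log2 fold changes −2.53, adjusted p = 0.00157) and *ADH2* (−3.50, adjusted p = 0.0203). Both fell at 20°C in *new1Δ* while their means were higher at 20°C in wildtype. Without *new1Δ* replicate 2 at 20°C the differences were −2.35 and −3.46 and the adjusted p 0.0628 for both, so that neither was called, while 3 ribosomal protein genes were. Without *new1Δ* replicate 1 at 20°C 22 genes were called and without replicate 1 at 30°C 4. With the sequencing run as a replicate block 6 genes were called, *ADH1*, *ADH2*, *CDC33*, *HSP12*, *RPL36A* and *YDJ1*, all with the more negative value in *new1Δ*. Of 1527 noncoding features 5 were called, which is 0.327%. They were *SNR75*, *SNR77*, *SNR79*, *SNR24* and the intergenic transcript INT50-1845, and between 1 and 3 features were called when 1 *new1Δ* library was left out. Of 8 alternative settings *SNR75* was called in 7 and INT50-1845 in 5, and *SNR24*, *SNR77* and *SNR79* in 0. Without *new1Δ* replicate 2 at 20°C their adjusted p values were 0.0566, 0.0993 and 0.0547. INT50-1845 had 409 and 69 reads at 20°C against 889 and 699 at 30°C in *new1Δ*, 0 and 0 at 20°C against 287 and 191 at 30°C in wildtype, and 0 in all untagged libraries.

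Lists of genes were followed as groups. To be read beside their counts, of all 4831 genes 0 were called higher and 6 lower, 6.52% were lower and 0.393% higher at an unadjusted p under 0.05, and 68.0% had a value below 0. Few members of any list were called. Of 82 proteins of the large subunit 1 was called lower and 0 higher, 30 were lower and 1 higher at an unadjusted p under 0.05, and 78 had a value below 0. Of 56 proteins of the small subunit 1 was called lower, 22 were lower and 0 higher at an unadjusted p under 0.05, and 52 had a value below 0. Over the members with at least 10 reads in each *new1Δ* library the medians were −0.76 for 68 large subunit genes and −0.71 for 50 small subunit genes, against 0.03 for all 1039. *RPL10*, a late-joining protein of the large subunit, had 2328 and 967 reads at 20°C against 8700 and 2141 at 30°C (log2 fold change −1.53 ± 0.29, adjusted p = 0.0564). Of 10 histone genes none was called, 10 had a value below 0 and 5 had an unadjusted p under 0.05. *HHT2*, a gene of histone H3, had 410 and 86 against 1205 and 638 reads (log2 fold change −2.09, adjusted p = 0.212). *HHO1*, the linker histone, had 0 and 0 against 228 and 80 (adjusted p = 0.12). Over 7 histone genes with at least 10 reads in all 8 Hel2-HTP libraries the median log2 ratio was −1.30 in *new1Δ* and −0.64 in wildtype.

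In wildtype 64 of 67 large subunit and 45 of 50 small subunit genes had a ratio below 0 as well. So had 382 of all 780 genes with at least 10 reads in all 8 Hel2-HTP libraries. Over genes with at least 10 reads in all 8 Hel2-HTP libraries, the median log2 ratio of mean CPM at 20°C over 30°C was −1.01 in *new1Δ* and −0.61 in wildtype for 67 large subunit genes, and −0.93 and −0.72 for 50 small subunit genes. For all 780 such genes it was −0.37 and 0.03. These mRNAs are short, with median coding lengths of 483 and 435 bases against 1323 over all 780. Across the 1039 genes with at least 10 reads in each *new1Δ* library the log2 fold change correlated with coding length with Spearman's rho of 0.330 and with GC content of −0.119, which describes genes of the same 4 libraries and not replicates. Without the ribosomal protein genes, the median was −0.57 for 72 coding sequences of up to 500 bases, −0.02 for 152 of up to 1000 bases, 0.03 for 228 of up to 1500 bases and 0.34 for 469 longer ones. Short mRNAs thus had lower values also outside the ribosomal proteins, and the part of fragment size selection in this was not tested.

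**Figure D5:**
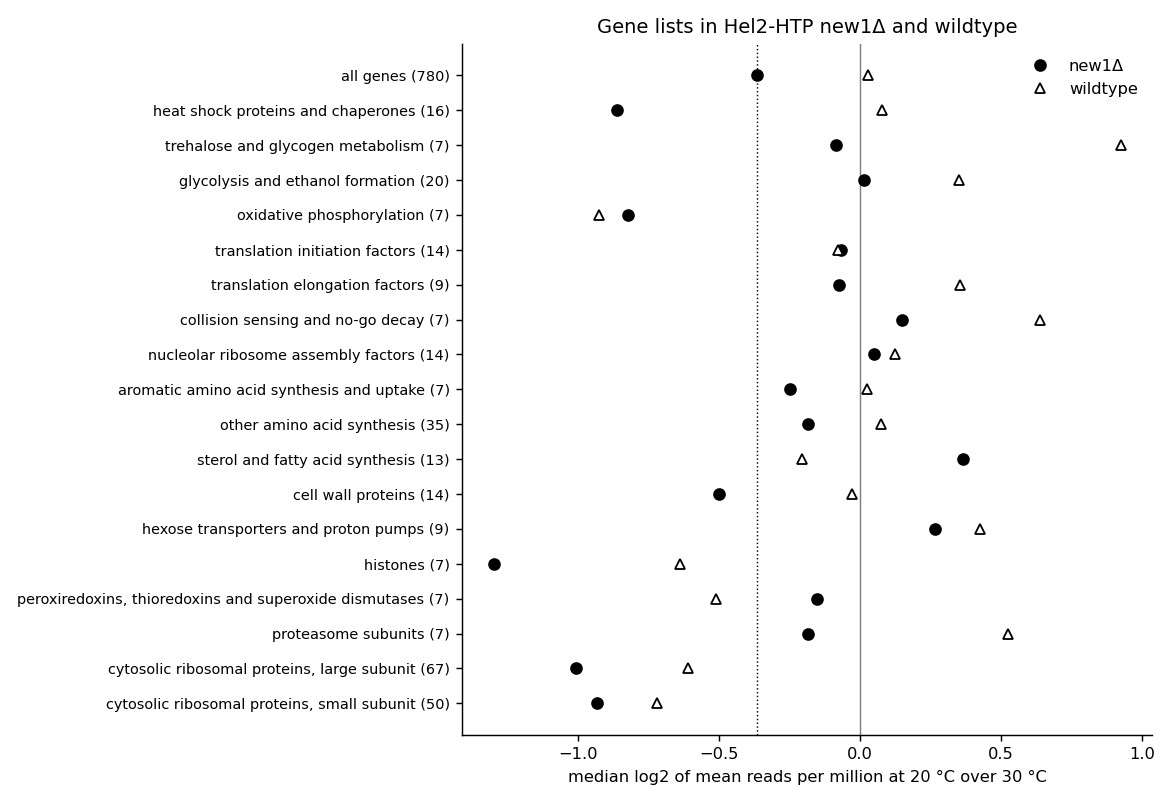
Median log2 ratio of mean CPM at 20°C over 30°C for gene lists, over members with at least 10 reads in all 8 Hel2-HTP libraries (number in parentheses). Filled circles are *new1Δ*, open triangles wildtype, and the dotted line is the *new1Δ* median of all 780 genes, −0.37. Both ribosomal protein lists lie below 0 in both strains.

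Of 28 heat shock proteins and chaperones 1, *YDJ1*, was called lower, 11 were lower and 0 higher at an unadjusted p under 0.05, and 24 had a value below 0. *HSP26*, a small heat shock protein, had 0 and 0 reads at 20°C against 66 and 272 at 30°C (adjusted p = 0.0652). Over 16 members with at least 10 reads in each of the 8 Hel2-HTP libraries the median log2 ratio was −0.86 in *new1Δ*, with 15 below 0, and 0.08 in wildtype, with 7 below 0. Of all 780 genes with that many reads, 492 were below 0 in *new1Δ* and 382 in wildtype. The difference between strains was not tested for the list. Of its members none was called in the test of the difference, where the replicate block called *HSP12* and *YDJ1*. Of 7 cold-induced mRNAs none was called, 5 had a value above 0 and 1 below. *NSR1*, a nucleolar protein known to be induced by cold, had 817 and 571 reads at 20°C against 374 and 176 at 30°C (log2 fold change 1.36 ± 0.63, adjusted p = 0.626). *OLE1*, the fatty acid desaturase, had 547 and 353 against 174 and 115 (adjusted p = 0.626). In wildtype the means of *NSR1* and *OLE1* were also higher at 20°C, by 1.52-fold and 2.04-fold.

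Of 22 genes of glycolysis and ethanol formation, *ADH1* and *ADH2* were called lower and 0 higher, and the median was 0.02, with 12 values above 0. Of 23 initiation factors 1 was called, *CDC33*. Of 10 elongation factors none was called, and *EFT1* and *EFT2* were the 2 that were higher at an unadjusted p under 0.05. Of 25 factors of collision sensing and no-go decay none was called, and 11 had a value above 0 and 14 below. *SLH1*, the helicase that splits collided ribosomes, had 0 and 0 reads at 20°C against 115 and 46 at 30°C (adjusted p = 0.626). Of 43 nucleolar assembly factors none was called. *SNU13*, which binds box C/D snoRNAs, had 0 and 0 reads at 20°C against 197 and 43 at 30°C (adjusted p = 0.12). In wildtype *SNU13* had 53 and 380 reads at 20°C against 333 and 138 at 30°C. The untagged libraries held 0 and 0 reads of it at 20°C against 586 and 0 at 30°C. The part of background in its reads was not tested. Of 14 genes of pyrimidine synthesis and uptake 0 were called, and 7 had a value above 0 and 7 below. The 2 with the smallest p both had an adjusted p of 0.626. *URA4* had 2 and 0 reads at 20°C against 134 and 82 at 30°C, and *URA5* 56 and 0 against 256 and 146. Of 16 genes of aromatic amino acid synthesis and uptake 0 were called. The part of the medium was not tested. *TSA1*, the main cytosolic peroxiredoxin, had 2725 and 504 reads at 20°C against 8087 and 5846 at 30°C (log2 fold change −2.45 ± 0.53, adjusted p = 0.0984), and *CCW12*, a cell wall mannoprotein, 2353 and 1002 against 8085 and 2161 (log2 fold change −1.45 ± 0.28, adjusted p = 0.0652). In wildtype the means of *TSA1* and *CCW12* were also lower at 20°C, by 2.83-fold and 2.60-fold. The difference between the strains in this change was not called for either. None was called among 39 genes of oxidative phosphorylation, 59 of other amino acid synthesis and 32 of sterol and fatty acid synthesis. The same held for 33 proteasome subunits and 62 mitochondrial ribosomal proteins. Of the 68 listed genes of mitochondrial ribosomal proteins 42 had no read in either *new1Δ* library at 20°C, against 2362 of all 5838 genes.

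The share of mRNA reads on transcripts with affected last codons overlapped between the temperatures. The classes of last codons come from the study, which sorted them on its own Hel2 libraries, so that they are not independent of the data. mRNAs of the strong class, ending in the lysine codon K(AAA) or in one of the arginine codons R(CGU) and R(AGG), took 33.3% and 27.9% of mRNA reads in *new1Δ* at 20°C against 30.7% and 35.9% at 30°C, against 18.9% and 18.7% and then 16.8% and 16.2% in wildtype. Mildly affected codons took 10.7% and 11.3% at 20°C against 11.8% and 11.1% at 30°C. Among 602 tested mRNAs of the strong class 2 were called lower, *ADH1* and *ADH2*, among 754 of the mild class 0, and among 3475 others 4. The median log2 fold change was −0.81 in the strong class, −1.16 in the mild class and −1.099 in the others, and 0.02, 0.15 and 0.02 over the genes with at least 10 reads in each *new1Δ* library. Among these, mRNAs ending in K(AAA) had a median of 0.04 (169 genes), in R(AGG) of 0.30 (15 genes), in R(CGU) of −0.27 (32 genes) and in K(AAG), which is not among the affected codons, of −0.27 (20 genes). mRNAs ending in N(AAU) had a median of 0.10 (37 genes) and in N(AAC) of −0.17 (40 genes).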

How the data were processed

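Sense reads per feature were analysed in the 4 Hel2-HTP *new1Δ* libraries, with 4 wildtype Hel2-HTP and 4 untagged libraries beside them. The authors aligned single-end reads of 75 nt with Novoalign to the R64 genome and deposited counts of sense reads per feature made with pyReadCounters (version 1.4.4 at 20°C and 1.4.2 at 30°C). The deposited counts are not collapsed and not normalized, and a read that overlaps several features is counted on each. The authors also deposited numbers of distinct cDNAs, which include antisense reads and served as an alternative. From the 35S pre-rRNA features, reads already counted on 18S, 5.8S and 25S were subtracted. Between 1.03% and 5.48% of reads on protein-coding features in a library did not match a nuclear R64 gene and were not used.

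All 8 Hel2-HTP libraries entered 1 fit per table in edgeR 4.0.16 (R 4.3.3; quasi-likelihood F-test, filterByExpr, Benjamini-Hochberg over all features tested), with 1 mean per strain and temperature and no replicate block. Protein-coding genes were scaled with TMM, noncoding features with the same effective library sizes, and tRNA types with their summed reads. Tested on simulated data with the spread of these libraries, the procedure missed the changes put into it, so a gene that is not called may still have changed. Alternatives were DESeq2 1.42.0, other scalings and filters, a replicate block, only the 4 *new1Δ* libraries, distinct cDNAs and each *new1Δ* library left out. Same-numbered libraries of the 2 temperatures deviated together with r = 0.0356 only, so the numbers do not pair them. Within a temperature each replicate number was 1 sequencing run, per the methods of the study, and the fit of the difference between strains was repeated with the run as a block (r = 0.0262 and 0.0634 between same-numbered *new1Δ* and wildtype libraries). The replicates were biological by the methods, and p-values measure the spread between 2 libraries a group, with the wildtype spread shared. Shares were compared with exact permutation tests.

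Genes named are the calls of each table (the 10 largest in each direction, or the 5 with the smallest p where fewer than 5 passed), up to 2 members of each of 22 gene lists by smallest p, and the genes the study probed. The comparison, lists and rule were chosen with earlier results of these data known. The interaction of tRNA types and noncoding features was added after the data were seen.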

Additional observations from a re-analysis of the deposited data

Results flagged for a closer look

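For 7 features the change with temperature differed between *new1Δ* and wildtype in edgeR's test of the difference itself, given here as the log2 fold change of 20°C over 30°C in *new1Δ* minus that in wildtype. *ADH1* differed by −2.53 (adjusted p = 0.00157) and *ADH2* by −3.50 (adjusted p = 0.0203), both with reads in all 8 libraries, but neither was called without *new1Δ* replicate 2 at 20°C (adjusted p = 0.0628 for both). The snoRNAs *SNR75* (−11.0, adjusted p = 0.0002), *SNR77* (−11.6, adjusted p = 0.0224), *SNR79* (−9.95, adjusted p = 0.0164) and *SNR24* (−10.9, adjusted p = 0.0164) were without a read in *new1Δ* at 20°C. Of 8 alternative settings *SNR75* was called in 7 and the other 3 snoRNAs in 0. INT50-1845 (9.17, adjusted p = 0.00114) had 0 reads in both wildtype libraries at 20°C and was called in 5 of 8. Fitted values against a group at 0 depend on the prior count and are no measure of size.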

How the results depend on the processing

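The counts of called features moved with the settings more than their directions did. Against 6 genes called (0 higher), DESeq2 called 171, edgeR with size factors of DESeq2 10, without TMM 14, without a filter on low counts 37, on distinct cDNAs 10 (3 shared), over genes with at least 10 reads in each *new1Δ* library 2 (*ADH1* and *EFT1*) and with only the 4 *new1Δ* libraries 0. Leaving out 1 *new1Δ* library gave 12 to 49. The replicate numbers do not pair the libraries of the 2 temperatures, and the fit with a replicate block called 31 genes. For the change that differed between strains (2 genes) DESeq2 called 16 genes, the fit without a filter 6, the fit with a replicate block (pair within temperature) 6 and leaving out 1 library 2 to 22. Of tRNA types (7 called), 13 were called with only the 4 *new1Δ* libraries and 5 to 13 with 1 library left out, and the difference between strains (0 types) gave 3 with the replicate block and 0 to 1 with 1 library left out. Of noncoding features (15 called), 54 were called on distinct cDNAs (15 higher and 39 lower, 9 shared) and 3 to 7 with 1 library left out. The difference between strains among them (5 called) gave 2 each with TMM scaling, without a filter, with the replicate block and on distinct cDNAs, and 1 to 3 with 1 library left out. The cause of these moves was not tested. The replicate block moved no other count of calls by over 1.5 times.

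The snoRNA share at 20°C minus 30°C was −0.472 percentage points on distinct cDNAs and −1.65 with rRNA left out of the total, against −0.847. The median log2 fold change of the strong last-codon class minus that of the unaffected codons was 0.29, and became 0.0209 on distinct cDNAs, −0.0045 over genes with at least 10 reads and 0 to 2.64 with 1 library left out. That of the mild class was −0.0638, and −0.933 to 0 with 1 library left out. *GPM1* turned from −0.26 to 0.0918 with DESeq2, 0.0912 with its size factors and 0.16 without TMM, and ranged from −0.495 to 0.36 with 1 library left out. *PGK1* ranged from −1.26 to 0.16 (without replicate 2 at 30°C). antisense3995 turned to 0.0699 on distinct cDNAs. Of the named features refitted under these settings no other turned its direction, and *SCR1*, INT50+3624, tS(AGA), *RPL36B* and *RPS9B* were not among them. Depth limits features at 0, where only a bound of 3 reads can be given.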
